A study of Rattus norvegicus with 12 samples.

Results

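Genes for matrix glycoproteins, elastic fibres and small proteoglycans were followed in rings of rat aorta cultured in a gel of fibrin or of collagen. The members are 44 genes listed by name, found by their symbol in the array's gene annotation with 1 probe set for each. The list was chosen with earlier results of these data known. Shares of members set beside shares of all genes below are therefore descriptions and not tests. Of these, 31 were measured, among 14324 named genes in all, and the other 13 are not analysed here. The rings came from male Fisher 344 rats of 1 to 2 months and were kept in serum-free EBM medium until day 2. The 4 groups of 3 arrays were fibrin with TNF (10 ng/ml recombinant rat TNF-alpha, an inflammatory cytokine), fibrin without it, collagen with the same dose of TNF, and collagen without it, called fibrin TNF, fibrin control, collagen TNF and collagen control. Each sample pooled 4 to 6 ring cultures, so it is a mixture of the cell types of the vessel wall. The titles call the replicates biological without saying whether they came from different animals, and p-values below reflect how far these samples spread, which may be technical. A tissue label names collagen gels for the fibrin samples too, and the titles were used in its place.

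The wall of the aorta is built on elastic lamellae, in which a core of elastin (Eln) is laid on microfibrils of fibrillin (Fbn1) and is organised by fibulins, emilin and microfibril-associated proteins. Small leucine-rich proteoglycans such as decorin (Dcn) and lumican (Lum) bind collagen fibrils and regulate their width. Matricellular proteins, among them the CCN family, periostin (Postn) and Sparc, carry signals to cells more than they bear load. In the aortic ring model, cells of the ring migrate into the gel and sprout, and they lay down and remodel matrix as they do so.

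Promoters are shown for members that were called lower with TNF in both gels (Mfap5, Omd and Ogn) and for a pair of elastic fibre genes that rose with TNF in collagen (Fbn1 and Efemp2), chosen after their values were seen. Of the 31 measured genes, 20 have a promoter in the RefSeq table used (build GRCr8). The sequences are the 250 bases before the start of each gene, 5′ to 3′ on the gene's strand. They lie at Mfap5, chr4:157399669-157399918, plus strand; Omd, chr17:15274871-15275120, minus strand; Ogn, chr17:15258996-15259245, minus strand; Fbn1, chr3:133203391-133203640, minus strand; and Efemp2, chr1:212211472-212211721, plus strand. Capitals mark matches to a motif on either strand.
Mfap5: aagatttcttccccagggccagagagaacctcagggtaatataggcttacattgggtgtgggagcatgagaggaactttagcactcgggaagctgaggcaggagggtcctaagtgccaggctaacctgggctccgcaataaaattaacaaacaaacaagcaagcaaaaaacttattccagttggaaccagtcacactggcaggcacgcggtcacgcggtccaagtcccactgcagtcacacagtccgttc
Omd: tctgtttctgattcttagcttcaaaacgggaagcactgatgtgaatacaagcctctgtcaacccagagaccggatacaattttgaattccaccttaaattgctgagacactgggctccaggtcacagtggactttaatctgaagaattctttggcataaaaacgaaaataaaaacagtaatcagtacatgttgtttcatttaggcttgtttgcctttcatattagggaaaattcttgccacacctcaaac
Ogn: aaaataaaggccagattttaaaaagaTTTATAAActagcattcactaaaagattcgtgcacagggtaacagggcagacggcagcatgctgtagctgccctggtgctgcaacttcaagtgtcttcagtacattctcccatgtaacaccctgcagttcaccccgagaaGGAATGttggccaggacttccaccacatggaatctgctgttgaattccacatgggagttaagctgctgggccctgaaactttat
Fbn1: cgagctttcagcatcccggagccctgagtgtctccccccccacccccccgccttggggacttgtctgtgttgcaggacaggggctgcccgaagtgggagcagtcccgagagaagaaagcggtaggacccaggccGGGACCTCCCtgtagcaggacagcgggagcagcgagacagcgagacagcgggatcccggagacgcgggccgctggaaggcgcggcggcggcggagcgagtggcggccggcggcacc
Efemp2: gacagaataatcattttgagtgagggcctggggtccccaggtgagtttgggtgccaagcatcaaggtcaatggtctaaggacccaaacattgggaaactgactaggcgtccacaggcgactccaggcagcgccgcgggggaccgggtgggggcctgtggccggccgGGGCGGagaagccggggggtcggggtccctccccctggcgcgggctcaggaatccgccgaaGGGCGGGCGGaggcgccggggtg
In Ogn the capitals are overlapping matches to TATAAA, 1 on each strand, and a match to the TEAD motif GGAATG. In Fbn1 they are 10 bases that match the NF-kB consensus on both strands, and in Efemp2 they are 3 matches to the GC box GGGCGG, of which 2 overlap. Mfap5 and Omd held no match to the 7 motifs searched in this window. Of 33469 promoters of the same length, 12.9% held TATAAA, 30.5% the GC box, 12.1% GGAATG and 6.33% the NF-kB consensus. The other motifs searched were the AP-1 motif TGANTCA (6.34% of promoters), the CArG box (1.5%) and the interferon response element (3.41%). Among the 20 member promoters, 4 held TATAAA (Ccn1, Ccn2, Ogn and Postn), 10 the GC box, 6 GGAATG (Acan, Ccn1, Ccn2, Ogn, Sparc and Tnn), 4 the NF-kB consensus (Acan, Ccn2, Fbn1 and Tnn), 1 the AP-1 motif (Efemp1) and 0 the CArG box or the interferon response element. A match is a description of these letters.

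The deposited values are log2 expression levels, from 1.44 to 14.07 over 27342 probe sets, and the medians of the 12 arrays lay between 5.89 and 5.98. A level is read within 1 gene across arrays and is not compared between genes. Within groups the 31 genes had a median standard deviation of 0.15 (log2), against 0.12 for all genes. The range of their 4 group means had a median of 0.53, against 0.21 for all genes. All 12 arrays were used. In these mixed cultures fewer cells of a type and less RNA per cell cannot be told apart.

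Most of the moves among these genes were decreases. By group mean, 19 of the 31 genes were lowest in fibrin TNF, compared with 28.5% of all genes, and 17 were highest in collagen control, compared with 30.9% of all genes. The 16 genes that were lowest in fibrin TNF and highest in collagen control at once compare with 15.8% of all genes. A difference was called at an adjusted p under 0.05 in limma, with adjustment over all 14324 genes. In all, 17 of the 31 were called in at least 1 of 5 comparisons, where 16.3% of all genes were, and 14 in none. These counts are from a fit that takes no account of replicate number. With the number as a block shared by all 4 groups, Fn1, Mfap2, Postn, Bgn and Prelp of these 14 were called. With a block inside each gel, Fbln5 was called. Of the 31, 30 were among the 9549 genes of higher mean, but the shares of all genes also count the dimmer genes. With only these 9549 tested, a larger part was called. The counts were 1153 with TNF in collagen and 590 with TNF in fibrin. In fibrin against collagen they were 1803 without TNF and 1454 with TNF. For the difference of the TNF effect between gels the count was 294. Members called were then 12, 5, 14, 11 and 7 of 30, in that order.

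With TNF in collagen, 5 genes rose (Fbn1, Fbln1, Efemp2, Emilin1 and Ccn1) and 7 fell (Fbln2, Mfap4, Mfap5, Sparcl1, Omd, Ogn and Ccn3). These are 12 of 31 genes, or 38.7%, where 6.37% of all genes were called (3.27% higher and 3.10% lower). The median log2 difference of the 31 genes was -0.08, against 0.00 for all genes. With TNF in fibrin, 0 genes rose and 4 fell (Mfap5, Tgfbi, Omd and Ogn), or 12.9%, where 3.13% of all genes were called (1.65% higher and 1.47% lower), and the median was -0.19 against 0.01. The count of 4 was 2 with only the fibrin arrays fitted or without fibrin control replicate 2, and 7 with a trended and robust prior, which added Lum, Ccn2 and Ccn5. All 3 arrays of each group were apart, with TNF lower, for 11 of the 31 genes in collagen (13.8% of all genes) and for 10 in fibrin (7.97%). They were apart with TNF higher for 5 genes in collagen (12.7%) and 0 in fibrin (10.2%). The TNF effects in the 2 gels share no array, but their tests share 1 estimate of the spread over all 12 arrays. Mfap5, Omd and Ogn were lower in both, 3 of the 7 genes lower in collagen and 3 of the 4 lower in fibrin. Of all genes, 78 (0.545%) were lower in both, out of 444 lower in collagen and 211 lower in fibrin. With only the fibrin arrays fitted, Omd (adjusted p = 0.0815) and Ogn (0.071) were not called in fibrin.

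Without TNF, 3 genes were higher in fibrin than in collagen (Fbn1, Fbln1 and Efemp2) and 8 were lower (Fbln2, Mfap5, Sparcl1, Tgfbi, Fmod, Omd, Ogn and Ccn3). These are 35.5% of the 31 genes, where 10.5% of all genes were called (5.35% higher and 5.19% lower), and the median was -0.13 against -0.01 for all genes. With TNF in both gels, 0 genes were higher in fibrin and 9 were lower (Fbln2, Mfap5, Tgfbi, Lum, Fmod, Ogn, Ccn2, Ccn3 and Ccn5), or 29.0%, where 8.19% of all genes were called (4.55% higher and 3.64% lower). The median was then -0.25 against 0.00. All 3 arrays of each group were apart, with fibrin lower, for 8 genes without TNF (15.0% of all genes) and 14 with TNF (12.9%), and with fibrin higher for 3 (14.3%) and 0 (14.8%). The 2 gel comparisons share no array, but their tests share 1 estimate of the spread. In both, 6 genes were lower in fibrin (Fbln2, Mfap5, Tgfbi, Fmod, Ogn and Ccn3), 6 of 8 without TNF and 6 of 9 with it. Of all genes, 231 (1.61%) were lower in both, out of 743 lower without TNF and 521 lower with it. The array medians were 5.91 to 5.93 in fibrin TNF, 5.89 to 5.91 in fibrin control, 5.94 to 5.97 in collagen TNF and 5.95 to 5.98 in collagen control, and the split of all called genes depended on the scaling. Without TNF it was 767 higher and 743 lower as deposited and 1217 higher and 474 lower after median centring, and with TNF 652 and 521 as deposited and 880 and 387 after centring. After quantile normalization it was 758 higher and 736 lower without TNF, and 575 and 565 with TNF. With TNF the count of 9 was 3 without collagen TNF replicate 1, 4 without collagen TNF replicate 3 or fibrin TNF replicate 1, and 5 after median centring of the arrays or with all probe sets tested. The TNF effect in collagen and the gel comparison without TNF use the same collagen control arrays, and each TNF effect shares arrays with each gel comparison, so their values are set side by side and are not independent.

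**Figure D1:**
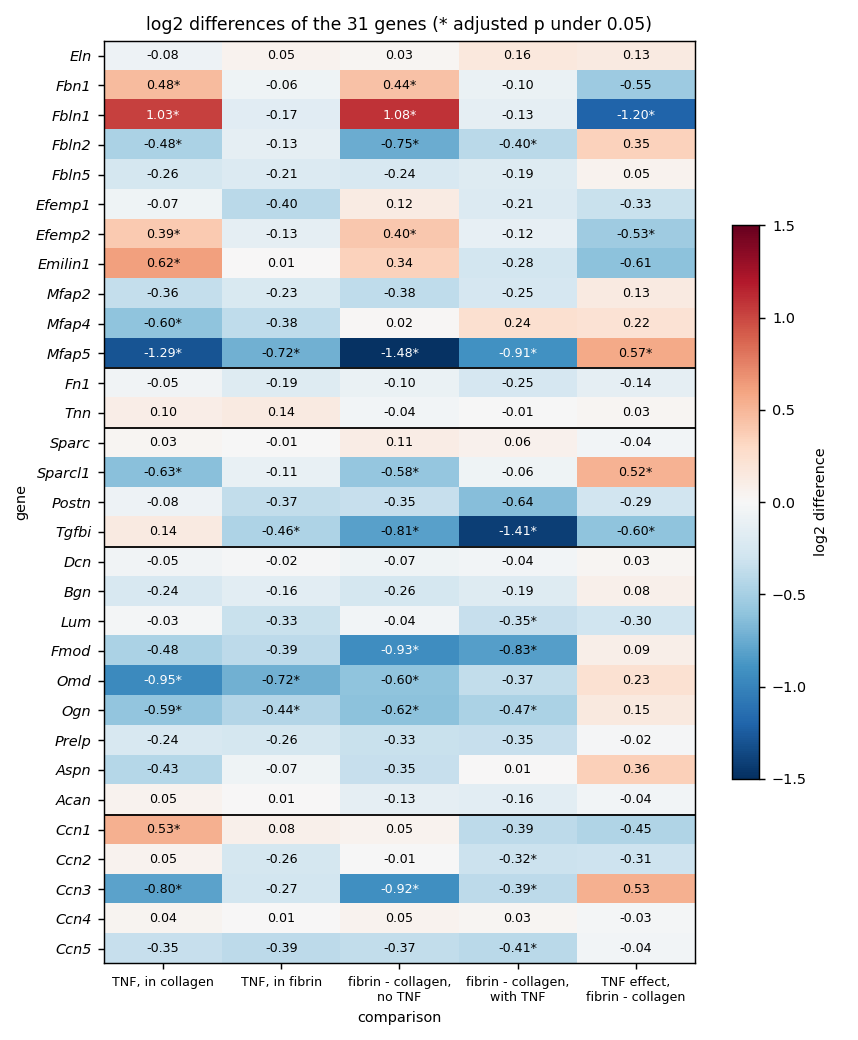
Heat map of log2 differences of the 31 genes (rows, grouped by role) in 5 comparisons (columns); red is higher and blue lower in TNF or in fibrin, the last column is the TNF effect in fibrin minus that in collagen, and an asterisk marks an adjusted p under 0.05. Mfap5 is blue in the first 4 columns, and Fbln1 is red with TNF in collagen (1.03) and in untreated fibrin (1.08).

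Of the 11 elastic fibre and microfibril genes, 4 rose and 3 fell with TNF in collagen, while 0 rose and 1 fell with TNF in fibrin. Without TNF, 3 were higher and 2 lower in fibrin, and with TNF 0 were higher and 2 lower. Mfap5, the microfibril-associated glycoprotein MAGP-2, had the largest decrease of the 31 genes in collagen with TNF. Mfap5 lay at 6.83, 6.99 and 6.75 on the fibrin TNF arrays, 7.64, 7.64 and 7.44 on the fibrin control arrays, 7.79, 7.75 and 7.75 on the collagen TNF arrays and 8.99, 9.03 and 9.14 on the collagen control arrays (log2). The 4 groups did not overlap, and the fibrin control and collagen TNF arrays were the closest. TNF lowered it 2.44-fold in collagen (log2 difference -1.29 ± 0.08 SE, adjusted p = 1.02e-06) and 1.65-fold in fibrin (-0.72 ± 0.08, adjusted p = 4.95e-04). In fibrin it was 2.79-fold lower without TNF (-1.48 ± 0.08, adjusted p = 2.15e-07) and 1.88-fold lower with TNF (-0.91 ± 0.08, adjusted p = 1.74e-05). These 4 calls were kept in every fit with an array left out and under every other setting run.

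Fibulin-1 (Fbln1), a glycoprotein that binds elastin and fibronectin, went the other way. Fbln1 lay at 11.44, 11.65 and 11.37 on the fibrin TNF arrays, 11.89, 11.79 and 11.30 on the fibrin control arrays, 11.83, 11.70 and 11.30 on the collagen TNF arrays and 10.43, 10.69 and 10.63 on the collagen control arrays (log2). Every collagen control array was below every other array. It was 2.04-fold higher with TNF in collagen (1.03 ± 0.16, adjusted p = 0.00175) and 2.11-fold higher in fibrin than in collagen without TNF (1.08 ± 0.16, adjusted p = 7.38e-04). In fibrin TNF gave -0.17 ± 0.16 (adjusted p = 0.677), and fibrin against collagen with TNF gave -0.13 ± 0.16 (adjusted p = 0.718).

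Efemp2 (fibulin-4), which is needed for cross-linking of elastin, had the same layout at a smaller scale. Efemp2 had 11.61, 11.80 and 11.70 on the fibrin TNF arrays, 11.81, 11.90 and 11.80 on the fibrin control arrays, 11.86, 11.78 and 11.85 on the collagen TNF arrays and 11.38, 11.42 and 11.50 on the collagen control arrays (log2). The collagen control arrays were again below all others. TNF raised it 1.31-fold in collagen (0.39 ± 0.07, adjusted p = 0.00353), and it was 1.32-fold higher in untreated fibrin (0.40 ± 0.07, adjusted p = 0.00185). In fibrin TNF gave -0.13 ± 0.07 (adjusted p = 0.387).

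Fibrillin-1 (Fbn1) forms the microfibril itself. Fbn1 was at 11.88, 12.30 and 12.40 on the fibrin TNF arrays, 12.28, 12.29 and 12.20 on the fibrin control arrays, 12.31, 12.27 and 12.31 on the collagen TNF arrays and 11.84, 11.65 and 11.94 on the collagen control arrays (log2). The collagen TNF arrays and the fibrin control arrays were above all collagen control arrays, and the fibrin TNF arrays spread widely, with replicate 1 inside the collagen control range. It was higher with TNF in collagen (0.48 ± 0.12, adjusted p = 0.0269) and in untreated fibrin (0.44 ± 0.12, adjusted p = 0.0285). Both calls lay near the threshold and were lost when single arrays were left out. Adjusted p was 0.0571 to 0.116 for the first without collagen control replicate 1 or 2 or any collagen TNF array. For the second it was 0.0513 to 0.118 without collagen control replicate 1 or 2 or any fibrin control array.

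Emilin1, an elastin-associated protein that sits between elastin and microfibrils, rose 1.54-fold with TNF in collagen (0.62 ± 0.10, adjusted p = 0.00295). Emilin1 read 9.58, 9.62 and 9.52 on the fibrin TNF arrays, 9.33, 9.62 and 9.74 on the fibrin control arrays, 9.81, 9.78 and 9.96 on the collagen TNF arrays and 9.13, 9.15 and 9.40 on the collagen control arrays (log2). The collagen TNF arrays were the highest of the 12. In untreated fibrin it differed by 0.34 ± 0.10 from untreated collagen, which missed the threshold (adjusted p = 0.0599) but passed after median centring (0.40, adjusted p = 0.0268), with array weights (adjusted p = 0.0392), with the trended and robust prior (0.0241), without the third of genes of lowest mean (0.0354), and without collagen control replicate 3 (0.0355) or fibrin control replicate 1 (0.0133). The untreated fibrin difference also passed with replicate number as a block shared by all 4 groups (adjusted p = 0.0344). In fibrin TNF gave 0.01 ± 0.10.

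Fibulin-2 (Fbln2), a binding partner of elastin and fibronectin, fell where fibulin-1 rose. Fbln2 gave 8.06, 8.0 and 7.94 on the fibrin TNF arrays, 8.32, 8.08 and 8.01 on the fibrin control arrays, 8.44, 8.40 and 8.38 on the collagen TNF arrays and 9.14, 8.71 and 8.82 on the collagen control arrays (log2). The collagen control arrays were the highest. It was lower with TNF in collagen (-0.48 ± 0.11, adjusted p = 0.0168), in fibrin without TNF (1.68-fold, -0.75 ± 0.11, adjusted p = 5.04e-04) and in fibrin with TNF (-0.40 ± 0.11, adjusted p = 0.0368). The first call was lost without collagen TNF replicate 2 or 3 (adjusted p = 0.0594 and 0.0599). The last was lost without any 1 of the 6 arrays compared (0.0712 to 0.114), after median centring (-0.36, 0.0587) and when all probe sets were tested (0.0625).

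Mfap4, a microfibril-associated protein of the vessel wall, fell 1.52-fold with TNF in collagen (-0.60 ± 0.14, adjusted p = 0.0209). Mfap4 stood at 10.14, 9.95 and 10.25 on the fibrin TNF arrays, 10.42, 10.40 and 10.68 on the fibrin control arrays, 9.89, 9.67 and 10.06 on the collagen TNF arrays and 10.29, 10.37 and 10.77 on the collagen control arrays (log2). The TNF arrays were below the control arrays in each gel, and the gels overlapped. The collagen call was lost without collagen control replicate 3, collagen TNF replicate 1 or collagen TNF replicate 2 (adjusted p = 0.0611 to 0.0953) and when only the collagen arrays were fitted (0.0541). In fibrin TNF gave -0.38 ± 0.14 (adjusted p = 0.189), or 0.0422 when the replicate number entered as a block inside each gel.

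The other elastic fibre genes passed in 0 of the 5 comparisons. Elastin itself (Eln) averaged 11.15 ± 0.19 in fibrin TNF, 11.10 ± 0.13 in fibrin control, 10.99 ± 0.18 in collagen TNF and 11.08 ± 0.27 in collagen control (log2, SD, n = 3). Its log2 differences ran from -0.08 ± 0.14 with TNF in collagen to 0.16 ± 0.14 for fibrin against collagen with TNF. Fibulin-5 (Fbln5), which tethers elastin to microfibrils and cells, differed by -0.26 ± 0.11 with TNF in collagen (adjusted p = 0.23), or adjusted p = 0.0471 with the block within each gel. Mfap2 (MAGP-1) differed by -0.36 ± 0.13 with TNF in collagen (adjusted p = 0.152) and -0.38 ± 0.13 in untreated fibrin (adjusted p = 0.101). The second passed without collagen control replicate 1 (0.0403) and with a replicate block shared by all 4 groups (0.0379). Efemp1 (fibulin-3) differed by -0.40 ± 0.18 with TNF in fibrin (adjusted p = 0.315).

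**Figure D2:**
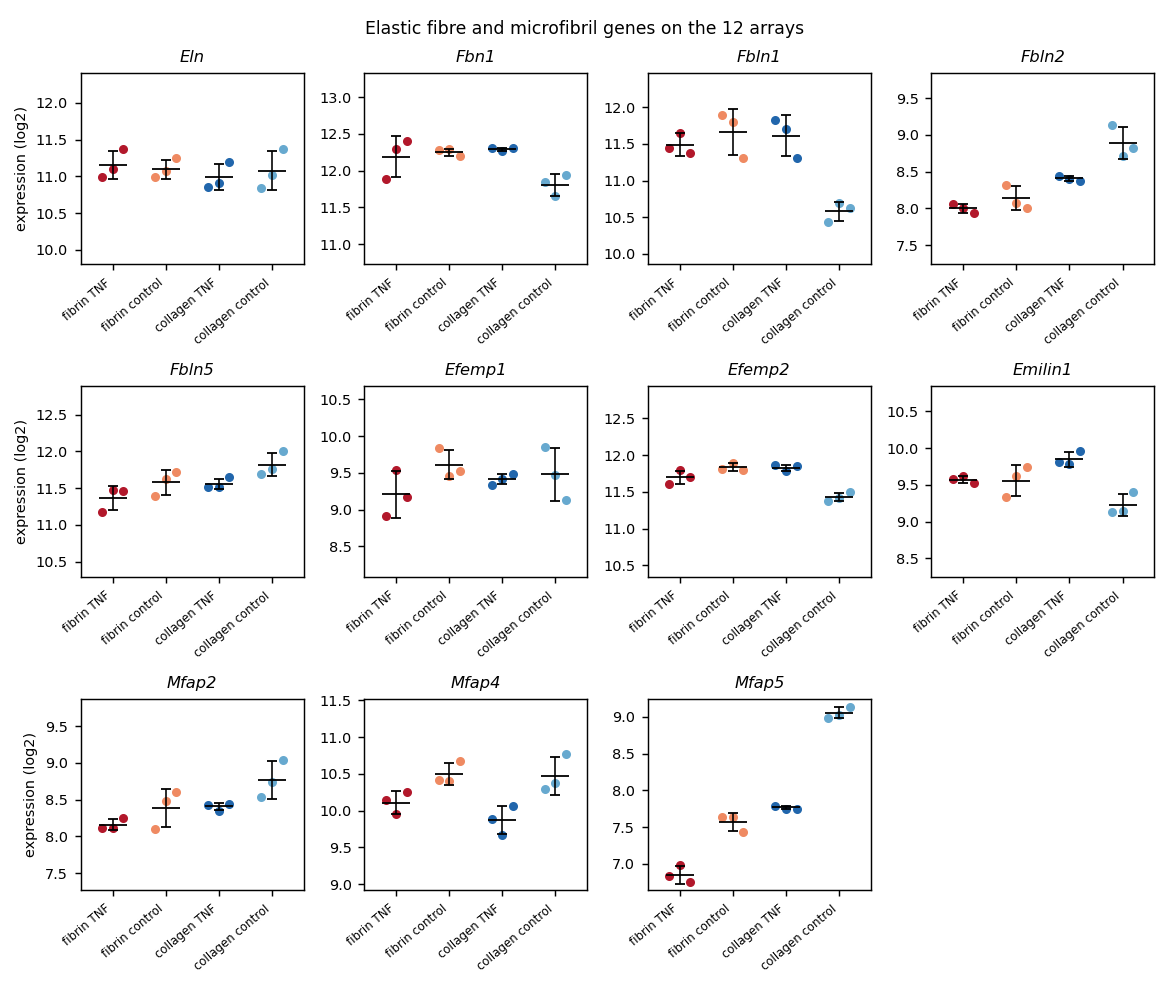
Expression (log2, vertical axis; each panel spans 2.6 log2 units) of the 11 elastic fibre and microfibril genes on the 12 arrays by group; points are arrays and bars are the mean ± SD of 3. Fbln1 and Efemp2 are lowest in collagen control, Mfap5 and Fbln2 are highest there, and the Eln groups overlap.

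Genes for adhesive and matricellular glycoproteins split between large moves and none called in the fit without a block. Tgfbi encodes a secreted protein that binds collagens and integrins and is induced by TGF-beta. Tgfbi lay at 8.30, 8.46 and 8.35 on the fibrin TNF arrays, 8.78, 8.75 and 8.96 on the fibrin control arrays, 9.86, 9.79 and 9.69 on the collagen TNF arrays and 9.62, 9.54 and 9.75 on the collagen control arrays (log2). Every fibrin array was below every collagen array, and the fibrin TNF arrays were below the fibrin control arrays. In fibrin it was 2.66-fold lower with TNF (-1.41 ± 0.08, adjusted p = 1.38e-06) and 1.75-fold without TNF (-0.81 ± 0.08, adjusted p = 3.21e-05). TNF lowered it 1.37-fold in fibrin (-0.46 ± 0.08, adjusted p = 0.00901) and gave 0.14 ± 0.08 in collagen (adjusted p = 0.399).

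Sparcl1 (hevin), a relative of Sparc, had the reverse layout of fibulin-1. Sparcl1 was at 11.54, 11.44 and 11.50 on the fibrin TNF arrays, 11.50, 11.65 and 11.65 on the fibrin control arrays, 11.56, 11.53 and 11.57 on the collagen TNF arrays and 12.06, 12.32 and 12.16 on the collagen control arrays (log2). The collagen control arrays were above the other 9, which overlapped between groups. TNF lowered it 1.54-fold in collagen (-0.63 ± 0.08, adjusted p = 2.88e-04), and it was 1.49-fold lower in untreated fibrin (-0.58 ± 0.08, adjusted p = 2.99e-04). TNF gave -0.11 ± 0.08 in fibrin, and fibrin against collagen with TNF gave -0.06 ± 0.08.

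Sparc, a collagen-binding glycoprotein, averaged 12.88 ± 0.07 in fibrin TNF, 12.88 ± 0.05 in fibrin control, 12.81 ± 0.03 in collagen TNF and 12.78 ± 0.09 in collagen control (log2, SD, n = 3), and its largest log2 difference was 0.11 ± 0.07 (fibrin against collagen without TNF). Periostin (Postn), a matricellular protein of remodelling tissue, had the largest standard deviation within a group of the 31 genes, 0.81 in fibrin TNF. Postn ran at 10.08, 10.51 and 11.65 on the fibrin TNF arrays, 10.68, 10.95 and 11.72 on the fibrin control arrays, 11.08, 11.13 and 11.94 on the collagen TNF arrays and 11.35, 11.28 and 11.78 on the collagen control arrays (log2). Replicate 3 was the highest in each of the 4 groups. The largest difference was -0.64 ± 0.37 for fibrin against collagen with TNF (adjusted p = 0.347). With replicate number as a block shared by all 4 groups, adjusted p for this difference was 0.031. Fibronectin (Fn1), the main adhesive glycoprotein of provisional matrix, averaged 12.88 ± 0.21 in fibrin TNF, 13.08 ± 0.20 in fibrin control, 13.13 ± 0.12 in collagen TNF and 13.18 ± 0.14 in collagen control. Its log2 differences ran from -0.05 ± 0.12 with TNF in collagen to -0.25 ± 0.12 for fibrin against collagen with TNF (adjusted p = 0.262, or 0.0361 with that block). Tnn (tenascin-N), the other member of the fibronectin and tenascin group, was at 4.04 to 4.75 on all arrays and was among the third of genes of lowest mean, and the files give no detection calls.

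The 9 proteoglycan genes moved in 1 direction where they were called: 0 were higher in any comparison, while 2 were lower with TNF in collagen, 2 with TNF in fibrin, 3 in fibrin without TNF and 3 in fibrin with TNF. Osteoglycin (Ogn) and osteomodulin (Omd) are small leucine-rich proteoglycans whose genes, with that of asporin (Aspn), are consecutive protein-coding genes in assembly GRCr8. Ogn lay at 10.42, 10.69 and 10.42 on the fibrin TNF arrays, 10.88, 10.98 and 11.00 on the fibrin control arrays, 11.07, 10.96 and 10.91 on the collagen TNF arrays and 11.58, 11.62 and 11.52 on the collagen control arrays (log2). The fibrin TNF arrays were the lowest, the fibrin control and collagen TNF arrays overlapped, and the collagen control arrays were the highest. TNF lowered it in collagen (1.51-fold, -0.59 ± 0.08, adjusted p = 7.91e-04) and in fibrin (1.36-fold, -0.44 ± 0.08, adjusted p = 0.0113). In fibrin it was lower without TNF (1.54-fold, -0.62 ± 0.08, adjusted p = 3.16e-04) and with TNF (1.38-fold, -0.47 ± 0.08, adjusted p = 0.00352). The call for TNF in fibrin was lost without fibrin control replicate 2 or 3 or fibrin TNF replicate 1 or 3 (adjusted p = 0.0524 to 0.0568), and with only the fibrin arrays fitted (0.071).

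Its neighbour Omd showed larger TNF differences. Omd had 5.76, 6.05 and 5.35 on the fibrin TNF arrays, 6.52, 6.53 and 6.26 on the fibrin control arrays, 6.16, 6.05 and 6.04 on the collagen TNF arrays and 7.04, 7.07 and 6.99 on the collagen control arrays (log2). The TNF arrays were below the control arrays in each gel, and the spread within fibrin TNF was the widest. TNF lowered it 1.93-fold in collagen (-0.95 ± 0.14, adjusted p = 0.00104) and 1.65-fold in fibrin (-0.72 ± 0.14, adjusted p = 0.013). It was 1.51-fold lower in untreated fibrin (-0.60 ± 0.14, adjusted p = 0.0141), and with TNF the gels differed by -0.37 ± 0.14 (adjusted p = 0.137, or 0.0169 without fibrin TNF replicate 2). The call for TNF in fibrin was lost without fibrin control replicate 2 (0.0635) and with only the fibrin arrays fitted (0.0815), and that of untreated fibrin without collagen control replicate 2 or fibrin control replicate 3 (0.0507 and 0.0585). Aspn passed in 0 comparisons, with -0.43 ± 0.23 for TNF in collagen (adjusted p = 0.353).

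Fibromodulin (Fmod), which binds collagen fibrils, followed the gel. Fmod lay at 6.68, 7.21 and 7.17 on the fibrin TNF arrays, 7.30, 7.33 and 7.62 on the fibrin control arrays, 7.95, 7.68 and 7.95 on the collagen TNF arrays and 7.83, 8.54 and 8.66 on the collagen control arrays (log2). Every fibrin array was below every collagen array. In fibrin it was 1.90-fold lower without TNF (-0.93 ± 0.20, adjusted p = 0.00928) and 1.78-fold with TNF (-0.83 ± 0.20, adjusted p = 0.0216). The second call was lost without collagen TNF replicate 1 or 3 or fibrin TNF replicate 1 (adjusted p = 0.0734 to 0.0956). TNF gave -0.48 ± 0.20 in collagen (adjusted p = 0.207, or -0.74 and 0.0187 without collagen control replicate 1) and -0.39 ± 0.20 in fibrin (adjusted p = 0.389).

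Prelp, the next gene to Fmod in GRCr8 and a proteoglycan that links basement membrane to collagen, missed the threshold in untreated fibrin (-0.33 ± 0.11, adjusted p = 0.0732) and with TNF (-0.35 ± 0.11, adjusted p = 0.0712). Both passed without the third of genes of lowest mean (0.0444 and 0.0413), under a trended and robust prior (0.0354 and 0.0323) and without collagen control replicate 1 (0.0273 and 0.0477). Both also passed with a replicate block shared by all 4 groups (0.0485 and 0.045). The second passed too with only the groups compared (0.0265) and without fibrin control replicate 1 (0.0409). Lumican (Lum) and decorin (Dcn) are neighbours too. Lum was at 12.46, 12.76 and 12.76 on the fibrin TNF arrays, 13.02, 12.94 and 13.01 on the fibrin control arrays, 13.01, 12.95 and 13.06 on the collagen TNF arrays and 13.08, 13.11 and 12.90 on the collagen control arrays (log2). The fibrin TNF arrays were below the other 9. Lum was lower in fibrin than in collagen with TNF (-0.35 ± 0.09, adjusted p = 0.0306), a call lost without any 1 collagen TNF array or fibrin TNF replicate 1 (0.0597 to 0.115), after median centring (0.054), with only the 2 groups fitted (0.0783) and over all probe sets (0.0545). With TNF in fibrin it differed by -0.33 ± 0.09 (adjusted p = 0.0697), which passed after quantile normalization (0.0427), without the third of genes of lowest mean (0.0378) and with the trended and robust prior (0.0145). Dcn, which binds collagen fibrils and TGF-beta, kept within 13.43 to 13.60 on all 12 arrays, with log2 differences from -0.07 ± 0.06 to -0.02 ± 0.06 in the 4 comparisons of groups. Biglycan (Bgn) differed by -0.16 ± 0.10 to -0.26 ± 0.10 without a call in the fit without a block, and aggrecan (Acan), the large proteoglycan, by -0.16 ± 0.13 to 0.05 ± 0.13.

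The CCN genes encode matricellular regulators, and Ccn1 and Ccn2 are early response genes and common readouts of YAP and TAZ. Ccn3 (formerly Nov), expressed by vascular smooth muscle, was called in 3 comparisons. Ccn3 had 10.06, 9.88 and 9.79 on the fibrin TNF arrays, 10.03, 10.29 and 10.22 on the fibrin control arrays, 10.40, 10.28 and 10.24 on the collagen TNF arrays and 11.08, 11.08 and 11.16 on the collagen control arrays (log2). The collagen control arrays were the highest of the 12. It fell 1.74-fold with TNF in collagen (-0.80 ± 0.09, adjusted p = 1.30e-04), and it was 1.90-fold lower in fibrin without TNF (-0.92 ± 0.09, adjusted p = 1.81e-05) and 1.31-fold lower with TNF (-0.39 ± 0.09, adjusted p = 0.0156). The last call was lost without collagen TNF replicate 1 or fibrin TNF replicate 3 (0.0693 and 0.0647). TNF gave -0.27 ± 0.09 in fibrin (adjusted p = 0.145).

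Ccn1 (formerly Cyr61) rose in collagen with TNF (0.53 ± 0.12, adjusted p = 0.0165). Ccn1 gave 9.84, 10.00 and 9.80 on the fibrin TNF arrays, 9.54, 9.97 and 9.90 on the fibrin control arrays, 10.30, 10.22 and 10.31 on the collagen TNF arrays and 9.93, 9.57 and 9.76 on the collagen control arrays (log2). The collagen TNF arrays were above all others. The call was lost without collagen control replicate 2 or 3 or collagen TNF replicate 1 or 3 (adjusted p = 0.0547 to 0.0764). With TNF, fibrin differed from collagen by -0.39 ± 0.12 (adjusted p = 0.0574), which passed after quantile normalization (0.0495), with only these groups fitted (0.0232), with the trended and robust prior (0.0255), without the third of genes of lowest mean (0.0336) and without collagen control replicate 1 (0.0495) or fibrin control replicate 1 (0.0217).

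Ccn2 (formerly Ctgf) was lower in fibrin with TNF. Ccn2 stood at 12.21, 12.38 and 12.47 on the fibrin TNF arrays, 12.55, 12.66 and 12.63 on the fibrin control arrays, 12.64, 12.60 and 12.78 on the collagen TNF arrays and 12.64, 12.52 and 12.69 on the collagen control arrays (log2). The fibrin TNF arrays were the lowest, and the other 3 groups overlapped. Its log2 difference from collagen TNF was -0.32 ± 0.08 (adjusted p = 0.0319). The same comparison called Ccn5 (formerly Wisp2), an inhibitor of smooth muscle growth (-0.41 ± 0.11, adjusted p = 0.0445). Ccn5 read 10.23, 10.26 and 10.48 on the fibrin TNF arrays, 10.56, 10.69 and 10.89 on the fibrin control arrays, 10.73, 10.62 and 10.84 on the collagen TNF arrays and 11.15, 10.87 and 11.22 on the collagen control arrays (log2). The fibrin TNF arrays were the lowest here too. Both calls were lost after median centring (Ccn2 -0.28, 0.0646; Ccn5 -0.36, 0.0675) and over all probe sets, and that of Ccn2 with only the 2 groups fitted (0.0843). With an array left out, Ccn2 was lost without collagen TNF replicate 1 or 3 or fibrin TNF replicate 1 or 2 (0.0545 to 0.136). Ccn5 was lost without any 1 collagen TNF array, fibrin TNF replicate 1 or 2, collagen control replicate 1 or fibrin control replicate 2 (0.0542 to 0.161). With the replicate block inside each gel, TNF lowered Ccn5 in collagen (-0.35, adjusted p = 0.0131) and in fibrin (-0.39, adjusted p = 0.0154), where in the reported fit without the block adjusted p was 0.0934 and 0.0957. Without a block both also passed with the trended and robust prior (0.0428 and 0.0404), and the first without collagen control replicate 2 (0.0446). In untreated fibrin Ccn5 differed by -0.37 ± 0.11 (adjusted p = 0.0551), which passed without the third of genes of lowest mean (0.033), with the trended and robust prior (0.0235), and without collagen control replicate 2, fibrin control replicate 3 or fibrin TNF replicate 3 (0.0246 to 0.0497). This difference also passed with a replicate block shared by all 4 groups (0.0108). Ccn4 (formerly Wisp1) lay at 7.56 to 7.85 on all arrays, and its differences did not exceed 0.05 ± 0.09.

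**Figure D3:**
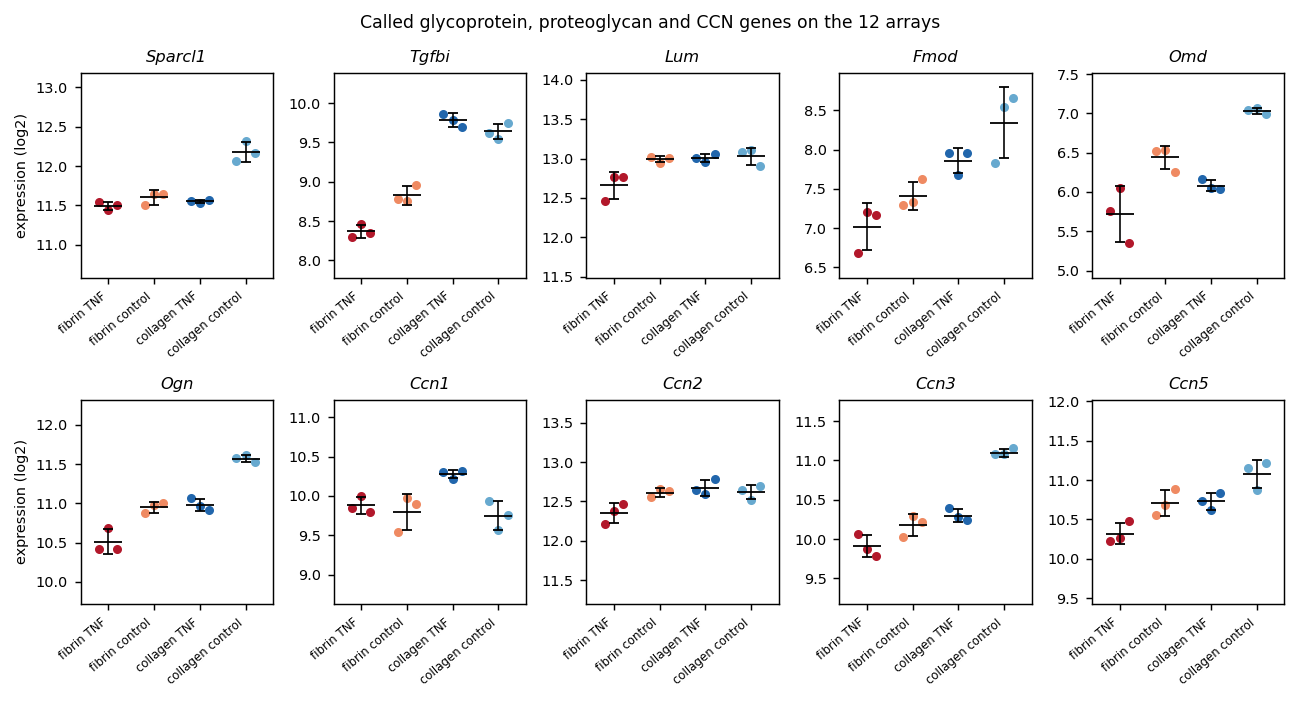
Expression (log2, vertical axis; each panel spans 2.6 log2 units) of the 10 glycoprotein, proteoglycan and CCN genes called in at least 1 comparison, on the 12 arrays by group; points are arrays and bars are the mean ± SD of 3. Tgfbi and Fmod separate by gel, Sparcl1 and Ccn3 are highest in collagen control, and Omd is lower with TNF in each gel.

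Whether the TNF effect differed between gels was tested as a difference of differences, fibrin minus collagen. It was called for 5 of the 31 genes, or 16.1%, where 1.24% of all genes were called (0.370% higher and 0.866% lower). The effect was lower in fibrin for Fbln1 (-1.20 ± 0.23, adjusted p = 0.0233), Tgfbi (-0.60 ± 0.12, adjusted p = 0.0269) and Efemp2 (-0.53 ± 0.10, adjusted p = 0.0187). It was higher in fibrin for Mfap5 (0.57 ± 0.11, adjusted p = 0.0294) and Sparcl1 (0.52 ± 0.11, adjusted p = 0.0384). Mfap5 fell with TNF in both gels, and Sparcl1 fell in collagen and was not called in fibrin. For Fbln1, Efemp2, Mfap5 and Sparcl1 the level in untreated fibrin already stood apart from that in untreated collagen, in the direction of the TNF effect in collagen, and it forms part of this difference. Tgfbi fell with TNF in fibrin and did not pass in collagen. Missing the threshold were Emilin1 (-0.61 ± 0.15, adjusted p = 0.0733), Ccn3 (0.53 ± 0.12, adjusted p = 0.0652) and Fbn1 (-0.55 ± 0.17, adjusted p = 0.152).

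These 5 calls lay near the threshold. Where they were lost with an array left out, adjusted p was 0.0521 to 0.0984. The count was 0 without collagen TNF replicate 1, 1 without collagen TNF replicate 2, fibrin control replicate 2 or fibrin TNF replicate 1, 2 without collagen control replicate 2, collagen TNF replicate 3, fibrin control replicate 3 or fibrin TNF replicate 3, and 3 without collagen control replicate 1 or 3. With the block of replicate numbers inside each gel it was 3, and Sparcl1 (adjusted p = 0.0802) and Tgfbi (0.0673) were lost. It was 2 over all probe sets, and Sparcl1 was also lost after quantile normalization (0.43, 0.0853). Emilin1 and Ccn3 passed with the trended and robust prior (0.0212 and 0.0147) and without the third of genes of lowest mean (0.0396 and 0.033). Emilin1 also passed without fibrin control replicate 1 (0.0208) and with a replicate block shared by all 4 groups (0.0415).

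**Figure D4:**
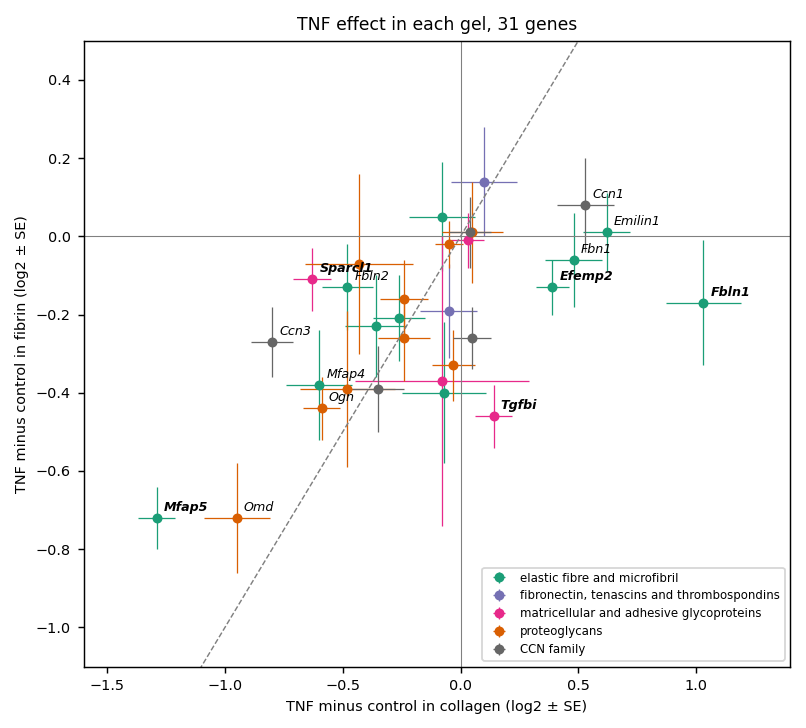
TNF minus control in collagen (horizontal axis) against TNF minus control in fibrin (vertical axis) for the 31 genes, in log2 with bars of ± SE, coloured by role; the dashed line marks equal effects, genes called in either gel are named, and bold names had a called difference between gels. Fbln1 lies at 1.03 in collagen and -0.17 in fibrin, while Mfap5 and Omd are lowest on both axes.

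Genes around this set were read from 5 other lists. Of 13 partners of elastic fibre assembly, 1 rose and 0 fell with TNF in collagen (the lysyl oxidase relative Loxl4, 0.52 ± 0.09, adjusted p = 0.00279), and 0 were called with TNF in fibrin. In untreated fibrin 0 were higher and 1 lower (the latent TGF-beta binding protein Ltbp4, -0.29 ± 0.07, adjusted p = 0.0221), and with TNF 0 were higher and 5 lower in fibrin than in collagen. The 4 of smallest adjusted p were Adamtsl4 (-0.46 ± 0.10), Loxl2 (-0.52 ± 0.12), Ltbp4 (-0.31 ± 0.07) and Loxl4 (-0.32 ± 0.09), and the list's median was -0.12 against 0.00 for all genes.

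Of 27 other matrix glycoproteins, 1 rose and 4 fell with TNF in collagen, and 0 rose and 4 fell with TNF in fibrin. Srpx, a sushi-repeat protein, fell in collagen (-0.83 ± 0.09, adjusted p = 8.84e-05) and in fibrin (-1.02 ± 0.09, adjusted p = 8.33e-05), as did dermatopontin (Dpt), which binds decorin (-0.83 ± 0.08 and -0.36 ± 0.08). In fibrin 0 were higher and 7 lower without TNF, and 1 was higher and 7 lower with TNF, with Srpx at -0.81 ± 0.09 and -1.0 ± 0.09 and Srpx2 at -0.67 ± 0.14 with TNF. Dpt also stands among the fibroblast markers below. The list's medians lay between -0.10 and -0.03 in these 4 comparisons.

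Of 26 other proteoglycans and link proteins, 1 rose and 3 fell with TNF in collagen, 0 and 1 with TNF in fibrin, 4 and 6 in untreated fibrin and 0 and 2 in fibrin with TNF. Syndecan-4 (Sdc4), a cell-surface heparan sulfate proteoglycan, rose with TNF in collagen (0.66 ± 0.11, adjusted p = 0.00295) and was higher in untreated fibrin (0.71 ± 0.11, adjusted p = 0.00102). Lrrc17 fell with TNF in collagen (-1.07 ± 0.19) and in fibrin (-1.18 ± 0.19). Glypican-4 (Gpc4), another heparan sulfate proteoglycan, was higher in untreated fibrin (0.54 ± 0.07), and opticin (Optc), a small leucine-rich protein, was lower (-0.68 ± 0.12).

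Of 21 enzymes of chondroitin and dermatan sulfate synthesis, 2 rose and 0 fell with TNF in collagen, 1 and 0 with TNF in fibrin, 2 and 0 in untreated fibrin and 1 and 1 in fibrin with TNF. Ugdh, which makes the UDP-glucuronate these chains need, was higher in all 4 comparisons (0.40 ± 0.08, 0.37 ± 0.08, 0.49 ± 0.08 and 0.46 ± 0.08, in that order). Of 14 YAP and TAZ targets outside the CCN family, 1 rose and 1 fell with TNF in collagen (Axl 0.29 ± 0.06, F3 -0.49 ± 0.10), 0 and 1 with TNF in fibrin (Igfbp3 -0.76 ± 0.12), 1 and 1 in untreated fibrin (Axl 0.33 ± 0.06, F3 -0.53 ± 0.10) and 0 and 1 in fibrin with TNF (Igfbp3 -1.19 ± 0.12). For the difference of the TNF effect, 1 glycoprotein (Nid2, -0.93 ± 0.20, adjusted p = 0.0491) and 1 YAP and TAZ target (Igfbp3, -0.92 ± 0.18, adjusted p = 0.0235) were called, and 0 genes of the other 3 lists.

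Markers of the cell types of the rings moved too. Of 7 fibroblast markers, 1 rose and 4 fell with TNF in collagen, 0 and 3 with TNF in fibrin, 0 and 4 in untreated fibrin and 0 and 3 in fibrin with TNF. Their mean level ran from 8.67 to 8.88 on the fibrin TNF arrays, 9.03 to 9.04 on fibrin control, 8.96 to 9.04 on collagen TNF and 9.40 to 9.44 on collagen control (log2). Pdgfra rose in collagen with TNF (0.68 ± 0.10), Dpt fell there (-0.83 ± 0.08), as did Col14a1 (-1.19 ± 0.12) and Gsn (-0.56 ± 0.08), both named after their values were seen, and Pi16 was at 7.87 ± 0.11 in fibrin TNF, 7.94 ± 0.21 in fibrin control, 7.55 ± 0.29 in collagen TNF and 7.65 ± 0.07 in collagen control (SD, n = 3). The other marker counted as lower there, Dpp4, averaged 3.65 in collagen TNF and 4.29 in collagen control, low levels for which the files give no detection calls. The difference of the TNF effect was called for 1 fibroblast marker, Pdgfra (-0.65 ± 0.14, adjusted p = 0.0377). Of 6 smooth muscle markers, 0 rose and 2 fell with TNF in collagen and 0 were higher and 3 lower in untreated fibrin, and 0 were called in the other 3 comparisons, with mean levels of 7.58 to 7.84, 7.81 to 8.16, 7.87 to 8.07 and 8.18 to 8.48 in the same group order. Of 9 macrophage markers, 0 were higher and 6 lower in fibrin without TNF, and 0 and 6 with TNF, among them Csf1r, Cd163 and Mrc1. With TNF, 1 rose and 0 fell in collagen, and 1 rose (Cd68, 0.39 ± 0.09) and 1 fell in fibrin. The mean level of the 9 was 8.44 to 8.68 on fibrin TNF, 8.62 to 8.92 on fibrin control, 9.35 to 9.76 on collagen TNF and 9.49 to 9.70 on collagen control arrays. Of 5 endothelial, 5 adipocyte, 3 Schwann cell, 5 chondrocyte and 4 T and B cell markers, 0 were called in the 5 comparisons. The part of these cell types in the results above was not tested.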

How the data were processed

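Per the labels' protocols, 200 ng of total RNA per sample went into Affymetrix sense-strand labelling. The deposited values were read as log2 expression from their range. The authors' summarisation and normalization are not given in the sources used here, and limma is named, with no version, in the submitters' processing notes. The probe annotation names 1 gene for 15097 of 27342 probe sets, several for 323, and 11922 are unnamed here. The probe set of highest mean stood for each gene (14324 genes; each member has 1 probe set). No batch information was given in the labels.

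Groups came from the sample titles. A linear model with 1 mean per group over all 12 arrays was fitted in limma (version 3.58.1, R 4.3.3) with moderated two-sided tests, with Benjamini-Hochberg adjustment over all genes and a threshold of 0.05. Errors of differences are standard errors, with a median of 0.11 over the members (0.16 for the difference of TNF effects). Precision is limited by having 3 arrays in a group. The fit was tested on simulated data. Arrays of the same replicate number deviated together within a gel (correlations 0.133, 0.139 and 0.144 in collagen, 0.248, 0.144 and 0.159 in fibrin). Arrays of different numbers within a gel gave -0.1 to -0.04 in collagen and -0.163 to 0.014 in fibrin. Whether the number marks paired cultures is not given in the labels and was not tested. The reported fits have no block, and blocking on replicate number inside each gel was tried as an alternative. Across gels, arrays of the same number gave 0.233, 0.081 and 0.129 when untreated and 0.053, 0.031 and 0.143 with TNF. Arrays of different numbers gave -0.211 to 0.097 when untreated and -0.087 to 0.035 with TNF. Same-number arrays thus also tended to deviate together across gels, though the ranges overlap. The reported fits take no pairs there, and a block shared by all 4 groups was tried as an alternative. Alternatives tried were array weights, a trended and robust prior, fits of only the groups compared, leaving out the third of genes of lowest mean, median centring, quantile normalization, the mean of a gene's probe sets, all probe sets, replicate blocks and leaving out each array. All measured members were named, and of each other list up to 4 called genes of smallest adjusted p in a comparison, and of each cell type up to 4 markers in listed order. The fibroblast markers Col14a1 and Gsn were named beyond this rule, after their values were seen. The members and lists were chosen with earlier results of these data known. Promoters came from RefSeq (GRCr8).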

Additional observations from a re-analysis of the deposited data

Results flagged for a closer look

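A test of the difference between the TNF effect in fibrin and that in collagen drew attention to 5 genes. For Fbln1 the difference was -1.20 (log2), from -0.17 in fibrin and 1.03 in collagen. For Tgfbi it was -0.60, from -0.46 in fibrin and 0.14 in collagen, and for Efemp2 -0.53, from -0.13 in fibrin and 0.39 in collagen. Mfap5 had a difference of 0.57, from -0.72 in fibrin and -1.29 in collagen, and Sparcl1 of 0.52, from -0.11 in fibrin and -0.63 in collagen. Groups of 3 arrays are too small for a search for outlying arrays.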

How the results depend on the processing

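The 41 calls of single genes kept their direction in every alternative, 22 of them also their call. The count of genes called kept within 1.5 times the 12 for TNF in collagen (11 to 14, and 9 to 12 with an array left out) and the 11 for untreated fibrin against collagen (11 to 16 with the named alternatives other than left-out arrays, and 10 to 12 with an array left out). For TNF in fibrin the count of 4 was 2 with only the fibrin arrays fitted, 7 with a trended and robust prior, and 2 to 4 with an array left out. For fibrin against collagen with TNF the count of 9 was 5 after median centring, 5 over all probe sets, and 3 to 11 with an array left out. For the difference of the TNF effect the count of 5 was 2 over all probe sets, 3 with the replicate block within each gel, and 0 to 5 with an array left out. A replicate block shared by all 4 groups gave counts of 14, 6, 16, 12 and 6 for the 5 comparisons in the order of TNF in collagen, TNF in fibrin, fibrin without TNF, fibrin with TNF and the difference. The block within each gel gave 14 and 6 for the TNF effects. Beyond the calls named above, the block within each gel changed no other call. Where calls moved, the cause was not tested, and fits with an array left out also have fewer arrays.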

Other observations

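Of the 31 genes, 9 had their highest value on the array numbered 3 in each of the 4 groups (Fn1, Eln, Mfap2, Mfap4, Sparc, Postn, Bgn, Acan and Ccn5), where 2.60% of all genes did. The same held for replicate 1 with 1 gene (Fbln2, 4.24% of all genes) and for replicate 2 with 0 (1.79%). Replicate 1 was the lowest in each group for Fn1, Eln, Fbln5 and Bgn (3.13% of all genes), and replicate 3 for Omd and Aspn (2.88%). With the replicate number as a block shared by all groups, Postn (-0.64, adjusted p = 0.031, against 0.347 without the block) and Fn1 (-0.25, adjusted p = 0.0361, against 0.262) were called lower in fibrin than in collagen with TNF, as was Prelp (0.045). It also called Bgn lower with TNF in collagen (-0.24, adjusted p = 0.0317, against 0.228) and in untreated fibrin (-0.26, 0.0148, against 0.137). Further calls under this block were Ccn5 with TNF in collagen (0.0203), with TNF in fibrin (0.0213) and in untreated fibrin (0.0108), Mfap4 with TNF in fibrin (0.022), Emilin1 (0.0344), Mfap2 (0.0379) and Prelp (0.0485) in untreated fibrin, and Emilin1 for the difference of the TNF effect (0.0415). What the replicate number stands for is not given in the labels.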
